A study of Homo sapiens with 12 samples.

Results

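The subject here is the response to doxycycline that 2 engineered leukaemia lines had in common, described across all genes of the count table. All 12 of the 12 libraries of the series entered, 6 of induced and 6 of uninduced cells, and the effect was the mean of the induced-minus-uninduced difference in each line. RNA was sequenced from OCI-AML2, an established human line grown from an acute myeloid leukaemia. Its derivatives were single-cell clones with a doxycycline-switched construct that encodes either wild-type MEF2C, a transcription factor (the WT line), or its S222A form, in which alanine stands in place of a serine (the S222A line). The 4 groups, of 3 libraries each, were the uninduced and the induced cells of each line. Induced cells received 600 ng doxycycline and uninduced cells vehicle, for 48 h in a volume of 3 ml. All groups carried a construct, and no label says that the cells' own MEF2C was removed. The labels do not give the number of clones or say whether the 3 libraries of a group were separate cultures, and the p-values below cover the spread between these libraries only, which may be technical. No doxycycline-treated cells without a construct were analysed here, so an effect of the drug itself and an effect of the construct cannot be told apart.

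As background, MEF2C is a DNA-binding factor of the MADS-box family that acts in muscle, neurons and blood, and its activity is set by phosphorylation and by binding of class IIa histone deacetylases. In acute myeloid leukaemia it is known for a role in self-renewal and drug resistance, and the series title concerns its phosphorylation in chemotherapy resistance. Doxycycline is an antibiotic that switches the bacterial Tet regulator of such constructs and that also blocks the ribosomes of mitochondria.

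Library totals ran from 875710 to 13134791 counts, with a median of 4103920 in the induced and 2357000 in the uninduced libraries. The deepest library of each group stood apart from the other 8, so each result was also fitted with a term for those 4 libraries. The share of mitochondrially encoded RNA was 5.04 to 9.27% in induced and 5.03 to 8.17% in uninduced libraries. Myeloid identity was checked on markers. CD33 stood at 27.5 to 58.0 counts per 1000000 counts (CPM) and SPI1, the master factor of myeloid cells, at 35.0 to 73.1 CPM, while the progenitor marker CD34 was at 0 in 10 libraries and ANPEP had 18 counts in all. The summed level of 5 lymphoid markers was 0.505 to 3.29 CPM in uninduced and 0 to 2.42 CPM in induced libraries, and that of 5 erythroid and megakaryocyte markers 0 to 2.52 and 0 to 2.01 CPM, with HBB and ALAS2 at 0 in all 12.

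MEF2C itself, the gene of the construct, was at 747, 645 and 817 CPM in WT uninduced libraries, 674, 844 and 812 CPM in WT induced, 605, 701 and 802 CPM in S222A uninduced and 919.5, 956 and 786 CPM in S222A induced libraries. The induced and uninduced libraries overlapped in both lines. Its mean difference over both lines was log2 0.21 ± 0.12 SE (fold 1.15, 95% interval 0.971 to 1.37, edgeR adjusted p = 0.443), so total MEF2C RNA was not shown to change. The groups are therefore called induced for their treatment and not for their MEF2C RNA, which counts transgene and endogenous transcripts together.

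Doxycycline moved a small set of genes on the average of both lines. Of 11474 genes tested, 235 (2.05%) were called, which means a Benjamini-Hochberg adjusted p under 0.05 in edgeR's quasi-likelihood test over all genes. Of these, 172 were higher (1.5% of genes tested) and 63 lower (0.549%), and 1695 genes had an unadjusted p under 0.05. The sign was the same in both lines for 230 of the 235, against 61.1% of all genes tested, but a large average itself favours equal signs, so this share is a description only. The lines contributed unequally, because 225 of the 235 had the larger log2 change in the S222A line and 229 were also called there alone, while only BTG2 was called in the WT line alone. Without single libraries the number of genes called fell from 235 to 123 (WT uninduced replicate 1), 116 (WT induced replicate 3), 135 and 114 (S222A uninduced replicates 1 and 2) and 108, 122 and 138 (S222A induced replicates 1, 2 and 3). With the term for the deepest libraries the count rose to 1249 (10.9%), and the share of higher genes went from 73.2 to 50.8%.

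The genes that moved in both lines were defined more strictly, by a call on the average together with an unadjusted p under 0.05 and the same sign in each line. The line criterion alone was met by 120 genes (1.05%), 95 higher (0.828%) and 25 lower (0.218%). Together the criteria left 91 genes (0.793%), called shared genes below, of which 76 were higher and 15 lower. The WT side of this definition is weak evidence. In that line only 195 genes (1.7%) had an unadjusted p under 0.05, a smaller share than this threshold would pass without any effect. In 71 of the 91, induced libraries were separate from uninduced ones in both lines, a state met by 255 genes (2.22%) of all tested, although the choice of the 91 by p-values on these libraries favours it. The higher shared genes had a median log2 change of 0.75 (WT line) and 1.49 (S222A line), and the lower ones of -0.49 and -1.09. All 91 had the same sign in both lines within the 4 deepest libraries and also within the other 8, although these libraries also chose them. All 91 passed with the term for the deepest libraries, and 43 of them passed without the deepest libraries. With the depth term the same criteria left 260 genes. With 1 library at a time left out, 49 to 108 genes met these criteria, new genes included, and 44 to 80 of the 91 still did. Without WT induced replicate 3 these numbers were 49 and 46, and without WT uninduced replicate 1 they were 52 and 44. Without S222A uninduced replicate 2 they were 55 and 55, and without S222A induced replicate 1 they were 58 and 58. A single gene passed the strictest test, on the larger of the 2 lines' p-values adjusted over all genes: BTG2 (0.00872% of genes tested, adjusted p = 0.0498). It lost that call in every fit that left out 1 library, and also with limma-voom, with upper quartile factors and when the deepest libraries were left out. With the depth term 6 genes (0.0523%) passed it.

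Each line's response was also read in the other line, with which it shares no library. In the WT line, where BTG2 alone was called, genes with an unadjusted p under 0.05 were taken instead. Of 139 such genes higher in the WT line, 129 (92.8%) were higher in the S222A line, against 50.8% of all genes, with medians of log2 0.75 in WT and 0.94 in S222A cells. Of 56 lower in the WT line, 41 (73.2%) were lower in the S222A line, against 49.2% of all genes, and their median was smaller in S222A (-0.36) than in WT cells (-0.60). In the other direction, of 321 genes called higher in the S222A line, 277 (86.3%) were higher in the WT line too and 73 of them had an unadjusted p under 0.05 there, against a background of 51.2% of all genes higher in WT. Their median log2 change was 1.29 in S222A and 0.26 in WT cells. Of 190 genes called lower in the S222A line, 160 (84.2%) were lower in the WT line, 14 with an unadjusted p under 0.05, and their medians were -0.86 and -0.18, against a background of 48.8% of all genes lower in WT. None of these 511 genes (4.45% of genes tested) had an unadjusted p under 0.05 in the opposite direction in the WT line. Few would be expected to, as only 195 of all 11474 genes (1.7%) had such a p in that line. Of those 195, 139 were higher and 56 lower, which is the background for the 73 and 14 as well. Over all 11474 genes the log2 changes of the 2 lines had a Pearson r of 0.358 and a Spearman rho of 0.303, as a description across genes, which are not independent replicates. Among the 5190 genes with a mean of at least 5 log2 CPM the values were 0.462 and 0.401.

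**Figure D1:**
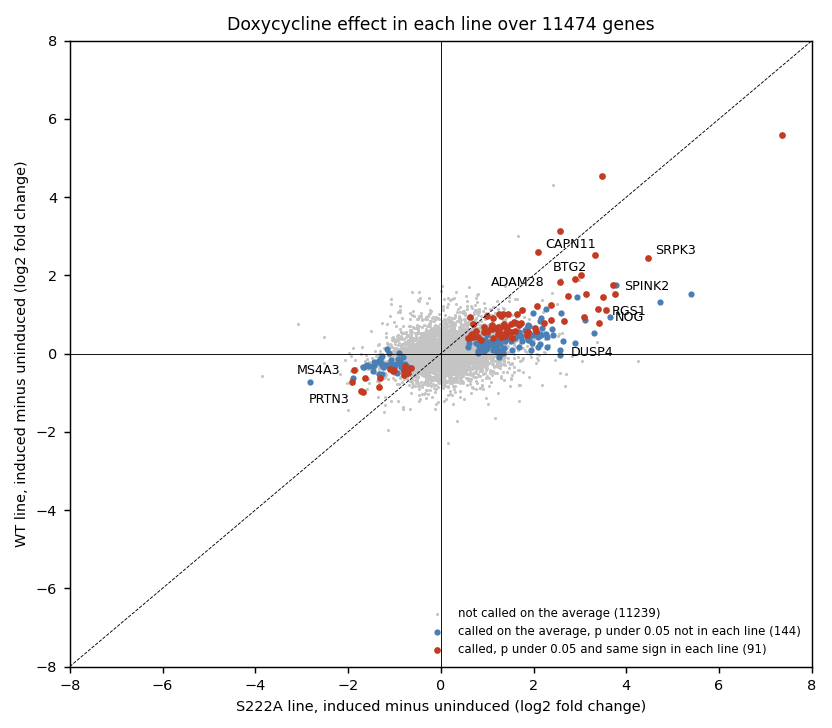
Log2 fold change of each of 11474 genes on doxycycline in the S222A line (horizontal) and in the WT line (vertical). The 91 shared genes (red) lie where both effects have the same sign, and 86 of them lie between the horizontal axis and the dashed line of equal change. Blue points are the other 144 genes called on the average.

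The shared genes that were higher are described singly, from those named by size and from the fixed lists. BTG2, an antiproliferative protein that recruits the mRNA deadenylase and that p53 can switch on, was at 7.07, 7.53 and 7.35 CPM in WT uninduced libraries, 21.6, 17.9 and 20.5 CPM in WT induced, 19.8, 25.4 and 19.7 CPM in S222A uninduced and 138, 167 and 129 CPM in S222A induced libraries. In each line every induced library lay above every uninduced one, yet the induced WT libraries reached only the level of the uninduced S222A libraries. The average change of BTG2 was log2 2.10 ± 0.13 SE (4.29-fold, edgeR adjusted p = 5.92e-06), or 2.77-fold for WT and 6.65-fold for S222A. Within the deepest libraries the BTG2 log2 difference was 1.46 for WT and 2.67 for S222A, and within the others 1.35 and 2.73.

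RGS1, which shortens signalling from chemokine receptors by speeding GTP hydrolysis on G proteins, was at 4.54, 7.15 and 2.04 CPM in WT uninduced libraries, 17.2, 11.2 and 10.5 CPM in WT induced, 10.9, 7.80 and 7.67 CPM in S222A uninduced and 89.4, 96.8 and 128 CPM in S222A induced libraries. Its groups did not overlap within either line, and its average change was log2 2.47 ± 0.24 SE (adjusted p = 0.000186). NOG, the secreted BMP antagonist noggin, was at 16.1, 14.5 and 24.5 CPM in WT uninduced libraries, 39.2, 34.8 and 42.9 CPM in WT induced, 14.7, 15.2 and 8.76 CPM in S222A uninduced and 138, 178 and 166 CPM in S222A induced libraries. The NOG groups were likewise separate in each line, with an average of log2 2.33 ± 0.16 SE (adjusted p = 1.3e-05). The NOG fold was 2.16 in WT and 11.8 in S222A cells, and the difference between these effects was itself called (log2 2.44 ± 0.32 SE, adjusted p = 0.0184), a call lost in 8 of the 12 fits without a library. DUSP6, a phosphatase that inactivates ERK and is itself induced by ERK signalling, was at 105, 117 and 88.2 CPM in WT uninduced libraries, 179, 126 and 149 CPM in WT induced, 136, 109 and 97.5 CPM in S222A uninduced and 288, 325 and 378 CPM in S222A induced libraries. Every induced DUSP6 library again lay above the uninduced ones of its line, and the average was log2 1.04 ± 0.13 SE (adjusted p = 0.00142).

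SPINK2, a serine protease inhibitor abundant in haematopoietic stem cells and in leukaemias of poor outcome, had the largest average change of the genes named by size. It was at 5.55, 4.64 and 5.31 CPM in WT uninduced libraries, 16.2, 14.6 and 13.2 CPM in WT induced, 1.56, 2.87 and 0 CPM in S222A uninduced and 23.6, 23.4 and 24.1 CPM in S222A induced libraries. The WT line started higher and was 2.88-fold higher on induction, and the S222A line started lower, with 0 counts in replicate 3, and ended higher. The average change of SPINK2 was log2 2.64 ± 0.24 SE (adjusted p = 0.00014). Among the 10 tested genes of a list made of SPINK2 and the LSC17 stemness score, 3 were called, all higher, against 1.5% of all genes: SPINK2, MMRN1 (log2 0.54) and C19orf77 (log2 1.42). The median over the 10 was 0.32, against 0.01 for all genes. MMRN1 lost its call in 10 of the 12 fits that left out 1 library and C19orf77 without the deepest libraries. SPINK2 was the only shared gene of this list. MMRN1 had log2 0.11 in the WT line, and CD34, another member of the score, was too low to test.

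ADAM28, a membrane metalloprotease of leukocytes, was at 2.02, 1.74 and 2.45 CPM in WT uninduced libraries, 5.85, 12.3 and 6.32 CPM in WT induced, 5.53, 6.98 and 3.29 CPM in S222A uninduced and 38.1, 30.3 and 31.6 CPM in S222A induced libraries. SMIM14, a small membrane protein, was at 19.7, 24.3 and 16.3 CPM in WT uninduced libraries, 47.6, 29.1 and 37.4 CPM in WT induced, 27.7, 30.4 and 21.9 CPM in S222A uninduced and 209.5, 224 and 259.5 CPM in S222A induced libraries. The average log2 changes were 2.19 ± 0.23 SE for ADAM28 and 2.01 ± 0.15 SE for SMIM14 (adjusted p = 0.000354 and 1.85e-05), and neither gene's groups overlapped within a line. HIST1H2AC, a histone H2A gene whose reads may be shared with near-identical copies, was at 5.55, 5.02 and 7.76 CPM in WT uninduced libraries, 10.1, 7.85 and 11.8 CPM in WT induced, 5.29, 7.39 and 5.48 CPM in S222A uninduced and 59.2, 68.9 and 63.8 CPM in S222A induced libraries. The change of HIST1H2AC was modest in the WT line (log2 0.78 ± 0.25 SE) and large in the S222A line (3.41 ± 0.24 SE), and the difference was called (adjusted p = 0.0184), but not in 8 of the 12 fits without a library. AHNAK, a giant scaffold protein below the plasma membrane, was among the more evenly shared genes. Its levels were 52.99, 49.6 and 58.4 CPM in WT uninduced libraries, 109, 118 and 88.4 CPM in WT induced, 94.1, 94.4 and 84.3 CPM in S222A uninduced and 213, 243 and 221 CPM in S222A induced libraries, with an average of log2 1.13 ± 0.11 SE (adjusted p = 0.000157) and 0.96 and 1.30 in the WT and S222A lines.

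The other genes named by size were CAPN11, TCTN1, DTX4, NLRP1 and CCDC109B. CAPN11, a calpain protease, rose by log2 2.35 ± 0.46 SE (adjusted p = 0.0183) from low counts, 0, 4 and 2 uninduced and 21, 8 and 9 induced in the WT line and 22, 2 and 1 and 28, 30 and 99 in the S222A line. Its call was lost without S222A induced replicate 1 (adjusted p = 0.0524) and without S222A uninduced replicate 2. The average log2 change was 1.75 for TCTN1, a protein of the ciliary transition zone, 1.62 for DTX4, a Deltex-family ubiquitin ligase, and 1.51 for the inflammasome sensor NLRP1. CCDC109B, an inhibitory subunit of the mitochondrial calcium channel, had 1.33. In these 4 genes too the induced libraries lay above the uninduced ones in each line.

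**Figure D2:**
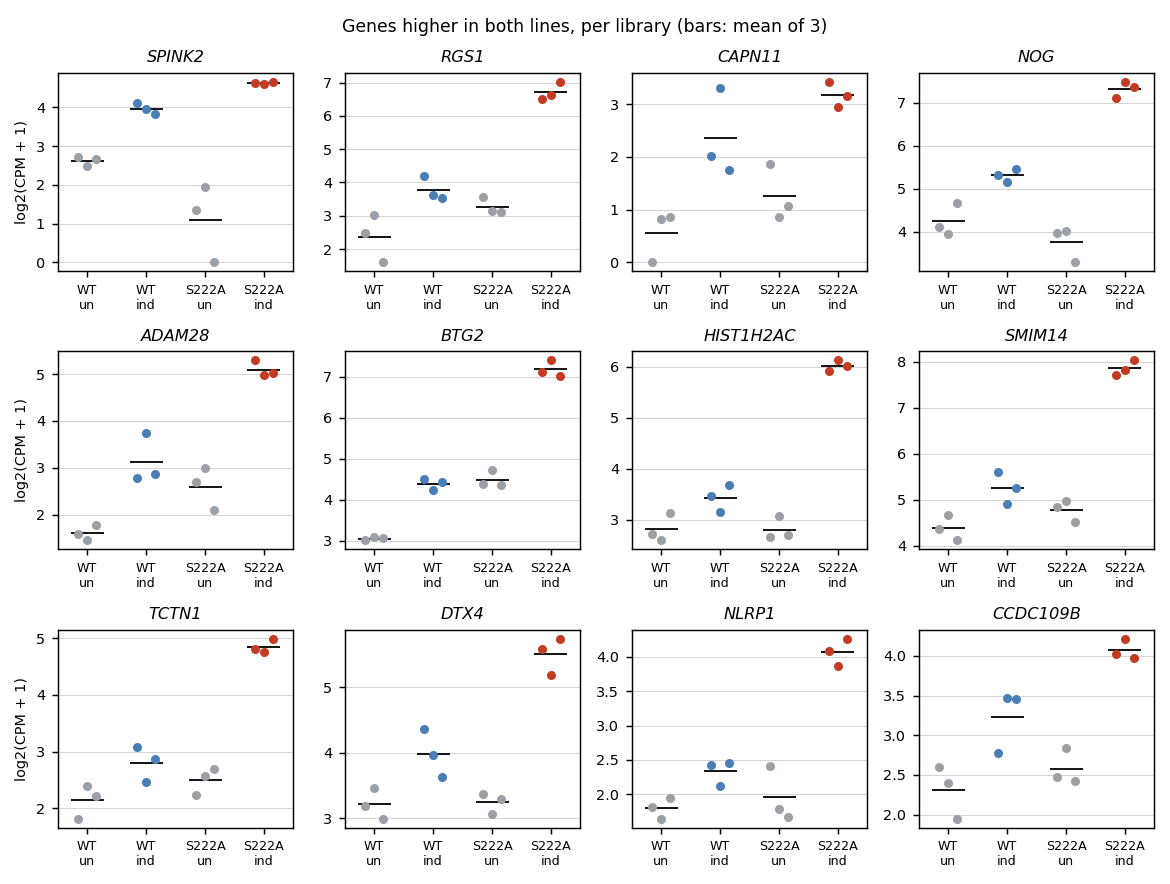
Level in each library, as log2(CPM + 1), of the 12 higher genes named by size, in the uninduced (un, grey) and induced (ind, coloured) groups of 3, with bars at the group mean. In every panel the induced points lie above the uninduced points of the same line, and the mean of the S222A induced group is the highest.

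The promoters of 6 higher genes show what stands upstream of genes that moved together. They are BTG2, RGS1 and SMIM14 from the genes named by size, TNFAIP3 for the NF-kB inhibitors, SRPK3 for MEF2 and LINC01021 for p53; the last 3 were chosen after their values and sequences were seen. Each is RefSeq sequence of build GRCh38.p14, the 250 bases before the transcription start, printed 5′ to 3′ on the gene's strand. Capitals mark motif matches: in BTG2 a CCAAT box, in RGS1 and SMIM14 the core of a cAMP-response element (TGACGT on either strand), in TNFAIP3 the E-box CACGTG and 2 NF-kB sites, in SRPK3 the MEF2 consensus and in LINC01021 a pair of adjoining p53 decamers. The positions are chr1:203305269-203305518 (plus strand), chr1:192575523-192575772 (plus), chr4:39638866-39639115 (minus), chr6:137867009-137867258 (plus), chrX:153780791-153781040 (plus) and chr5:27472042-27472291 (plus).
BTG2: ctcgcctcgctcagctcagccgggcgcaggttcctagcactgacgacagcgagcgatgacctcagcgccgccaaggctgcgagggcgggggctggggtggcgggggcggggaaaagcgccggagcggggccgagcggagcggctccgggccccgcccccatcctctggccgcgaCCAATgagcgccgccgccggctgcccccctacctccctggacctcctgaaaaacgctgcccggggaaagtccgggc
RGS1: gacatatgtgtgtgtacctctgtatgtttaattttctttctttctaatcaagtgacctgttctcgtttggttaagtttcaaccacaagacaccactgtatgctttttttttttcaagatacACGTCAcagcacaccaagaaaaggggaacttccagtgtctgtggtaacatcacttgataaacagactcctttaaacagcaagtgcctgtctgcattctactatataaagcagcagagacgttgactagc
SMIM14: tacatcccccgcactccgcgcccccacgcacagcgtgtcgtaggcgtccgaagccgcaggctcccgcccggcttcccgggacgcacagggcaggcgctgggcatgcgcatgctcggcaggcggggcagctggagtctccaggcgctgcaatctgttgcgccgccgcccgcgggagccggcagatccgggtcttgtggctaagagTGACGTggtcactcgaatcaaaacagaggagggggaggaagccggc
TNFAIP3: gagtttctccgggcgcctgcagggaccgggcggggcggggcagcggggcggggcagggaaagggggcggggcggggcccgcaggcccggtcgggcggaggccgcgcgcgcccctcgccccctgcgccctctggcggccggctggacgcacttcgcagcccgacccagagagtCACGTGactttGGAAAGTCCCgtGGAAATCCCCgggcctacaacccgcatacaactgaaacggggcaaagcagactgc
SRPK3: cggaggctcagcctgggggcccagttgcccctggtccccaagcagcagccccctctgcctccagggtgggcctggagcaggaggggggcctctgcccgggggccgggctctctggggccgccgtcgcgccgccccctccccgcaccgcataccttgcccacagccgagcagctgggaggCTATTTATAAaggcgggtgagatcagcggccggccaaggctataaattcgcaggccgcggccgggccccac
LINC01021: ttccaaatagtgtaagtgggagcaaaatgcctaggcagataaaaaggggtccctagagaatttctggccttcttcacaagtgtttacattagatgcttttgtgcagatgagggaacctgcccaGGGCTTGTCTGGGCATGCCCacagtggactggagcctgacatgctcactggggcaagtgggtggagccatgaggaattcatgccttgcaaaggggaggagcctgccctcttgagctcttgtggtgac

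Counted to its first base as printed, the CCAAT box of BTG2 begins 76 bases before the start and the TGACGT matches of RGS1 and SMIM14 begin 129 and 46 bases before it. The NF-kB sites of TNFAIP3 begin at 67 and 55 bases before the start, the MEF2 consensus of SRPK3 at 71, and the p53 decamers of LINC01021 at 127 and 117. Over windows from 250 bases before to 50 after the start, 10 motifs were searched on both strands in the 55 of 76 higher shared genes with a RefSeq promoter. The MEF2 consensus was in 1 of the 55 (1.82%), against 1.39% of promoters of all tested genes. The NF-kB site was in 7.27% against 6.37%, the p53 decamer in 5.45% against 5.07%, and CCAAT in 34.5% against 37.5%. TGACGT was in 7.27% against 12.3%, the AP-1 site TGANTCA in 3.64% against 4.1% and CACGTG in 3.64% against 10.6%. The ETS core CCGGAAGT was in 1.82% against 9.95%, the sterol element TCACNCCAC in 1.82% against 1.08%, and the CArG box of SRF in 0 of 55 against 1.06%. A match is a description of letters and not a bound site.

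The NF-kB feedback list held 17 tested genes, and 3 of them were called, all higher, against 1.5% of all genes. TNFAIP3, the ubiquitin-editing enzyme A20 that limits NF-kB signalling, was at 56.5, 48.3 and 51.5 CPM in WT uninduced libraries, 72.3, 90.8 and 86.1 CPM in WT induced, 119, 145 and 189 CPM in S222A uninduced and 376, 348 and 251 CPM in S222A induced libraries. Its induced libraries were above the uninduced ones in each line, with an average of log2 0.89 ± 0.14 SE (adjusted p = 0.00646). BIRC3, an inhibitor of apoptosis, and BCL3, an atypical IkB protein, were called with log2 1.48 and 1.31 on the average. Neither was a shared gene. BIRC3 lost its call without S222A uninduced replicate 1 or the deepest libraries, and BCL3 in 7 of the 12 fits without a library. The median of the list was 0.32, and 11 of 17 members were higher in both lines, a pattern held by 3617 of all 11474 genes. SRPK3, a muscle kinase gene known as a MEF2C target in mouse muscle, was barely detected before induction. Its counts were 0, 1 and 0 uninduced and 6, 1 and 1 induced in the WT line, and 2, 1 and 0 and 22, 28 and 68 in the S222A line, so the WT part of its call (adjusted p = 0.00984 on the average) rests on 9 counts in all. The average call of SRPK3 was lost without WT induced replicate 1 and without the deepest libraries (adjusted p = 0.159). LINC01021, a long non-coding RNA that p53 induces, was at 35.8, 35.5 and 54.3 CPM in WT uninduced libraries, 46.9, 106 and 88.7 CPM in WT induced, 43.2, 45.1 and 45.99 CPM in S222A uninduced and 113, 103 and 77.3 CPM in S222A induced libraries, with overlap in the WT line and an average of log2 1.02 ± 0.20 SE (adjusted p = 0.0174). Its call was lost without WT uninduced replicate 1, WT induced replicate 3 or S222A induced replicate 1. Of 22 tested p53 response genes, however, none was called, 10 were higher and 6 lower in both lines, and their median was 0.08.

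The shared genes also included genes of cell shape, adhesion and matrix, of which the cytoskeletal ones were picked after their values were seen. VIM, the intermediate filament vimentin, was at 297, 195 and 376 CPM in WT uninduced libraries, 311, 459.6 and 503 CPM in WT induced, 221.99, 269.6 and 205 CPM in S222A uninduced and 862, 936 and 729.5 CPM in S222A induced libraries. Its WT groups overlapped and its S222A groups did not, and the average was log2 1.21 ± 0.17 SE (adjusted p = 0.00312). CAPG, which caps actin filaments, was at 95.4, 124 and 74.4 CPM in WT uninduced libraries, 191, 155 and 158 CPM in WT induced, 203, 196 and 333 CPM in S222A uninduced and 858, 774 and 784 CPM in S222A induced libraries, and LMNA, which encodes lamins A and C of the nuclear envelope, at 9.59, 8.88 and 11.03 CPM in WT uninduced libraries, 16.95, 14.6 and 14.7 CPM in WT induced, 18.4, 16.01 and 20.8 CPM in S222A uninduced and 37.8, 45.5 and 45.4 CPM in S222A induced libraries. Neither gene's treatments overlapped within a line, and the average changes were log2 1.26 ± 0.16 SE for CAPG and 0.96 ± 0.14 SE for LMNA (adjusted p = 0.00142 and 0.00309). LGALS1, the secreted lectin galectin-1, changed by log2 1.03 ± 0.20 SE (adjusted p = 0.0217), and lost its call without WT uninduced replicates 1 or 3 or S222A uninduced replicates 2 or 3.

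Of 9 tested matrix metalloproteases, sheddases and inhibitors, 3 were called, all higher, against 1.5% of all genes, and the list median was log2 0.61 (WT 0.33, S222A 0.88). MMP14, the membrane-type protease that activates other metalloproteases, was at 145, 136 and 127 CPM in WT uninduced libraries, 185, 212 and 180.3 CPM in WT induced, 245, 283 and 369 CPM in S222A uninduced and 801, 780.0 and 735 CPM in S222A induced libraries. The groups were separate in each line and the average change of MMP14 was log2 0.94 ± 0.12 SE (adjusted p = 0.00117). The sheddase ADAM10 had log2 0.59 ± 0.11 SE (adjusted p = 0.0154), a call lost without WT induced replicate 3, and was not a shared gene. MMP19 was called on few reads, with counts of 0, 0 and 0 uninduced and 2, 0 and 5 induced in the WT line and 5, 0 and 1 and 19, 29 and 60 in the S222A line, and 11 of the 12 fits without a library lost it. Among 13 tested integrin subunits ITGB7 (log2 1.23 ± 0.19 SE) and ITGA6 (1.23 ± 0.21 SE) were called higher, against 1.5% of all genes. Of the 13, 9 were higher in both lines, against 3617 of 11474 genes. ITGB7, the partner of the gut-homing integrins, had log2 1.01 in WT and 1.46 in S222A cells, whereas ITGA6 had 0.18 and 2.28 and lost its call without the deepest libraries. CD82, a tetraspanin that restrains cell movement, was called with log2 0.91 ± 0.11 SE (adjusted p = 0.00114).

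The list of lymphoid genes had a single shared gene, TRAC, and VPREB1 and TOX, which are not on it, are described beside it because their values were seen. TRAC, which encodes the constant part of the T cell receptor's alpha chain, was at 4.54, 4.25 and 0 CPM in WT uninduced libraries, 13.3, 2.24 and 7.11 CPM in WT induced, 5.53, 5.34 and 3.29 CPM in S222A uninduced and 37.4, 33.7 and 61.9 CPM in S222A induced libraries, with overlap in the WT line. VPREB1, part of the surrogate light chain of early B cells, had 0 counts in all 6 uninduced libraries. Its induced counts were 13, 0 and 4 for WT and 12, 18 and 69 for S222A, and no fold is given against 0. TRAC had an adjusted p of 0.0152 and VPREB1 of 0.00987. Of the 24 listed lymphoid genes only 4 could be tested, and TRAC and CXCR3 (log2 1.91) were called higher, against 1.5% of all genes. TRAC lost its call without S222A uninduced replicate 2, and CXCR3 in 10 of the 12 fits without a library. The defining lymphoid markers CD3E and MS4A1 were at 0 in 10 and 9 libraries, and the summed lymphoid markers were no higher in induced libraries (given above). TOX, a nuclear factor of developing T cells, was at 6.06, 4.83 and 5.72 CPM in WT uninduced libraries, 8.18, 7.85 and 8.42 CPM in WT induced, 6.13, 7.39 and 5.48 CPM in S222A uninduced and 19.4, 19.2 and 19.8 CPM in S222A induced libraries, without overlap in either line and with log2 1.09 ± 0.16 SE on the average (adjusted p = 0.00366, but 0.0687 without the deepest libraries).

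The shared falls included granule proteins of granulocyte precursors. Of 14 tested genes of the azurophil granule and neutrophil list, 7 were called, all lower, against 0.549% of all genes, and 12 of the 14 were lower in both lines, against 3388 of 11474 genes. The list median was log2 -0.74, with -0.32 for WT and -1.04 for S222A. MS4A3, a membrane protein that marks granulocyte-monocyte progenitors, was at 250.3, 325 and 254 CPM in WT uninduced libraries, 233, 178 and 205 CPM in WT induced, 236, 193 and 235 CPM in S222A uninduced and 59.6, 62.4 and 60.7 CPM in S222A induced libraries. It was lower in every induced library of each line, by 1.34-fold for WT and 3.64-fold for S222A (average log2 -1.14 ± 0.12 SE, adjusted p = 0.000256), and the difference between lines was called (adjusted p = 0.0438), but not in 11 of the 12 fits without a library.

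PRTN3, the granule protease proteinase 3, was at 10.6, 10.8 and 11.4 CPM in WT uninduced libraries, 6.43, 3.36 and 5.53 CPM in WT induced, 12.97, 7.80 and 8.76 CPM in S222A uninduced and 3.81, 2.68 and 3.19 CPM in S222A induced libraries. Its induced libraries lay below the uninduced ones in each line (average log2 -1.33 ± 0.21 SE, adjusted p = 0.00611), but the call was lost without the deepest libraries (adjusted p = 0.0572). MPO, myeloperoxidase, was at 18.2, 19.3 and 15.5 CPM in WT uninduced libraries, 10.4, 4.48 and 10.3 CPM in WT induced, 9.13, 4.92 and 7.67 CPM in S222A uninduced and 0.693, 3.34 and 2.31 CPM in S222A induced libraries. The MPO groups were separate in each line, and 2 counts in S222A induced replicate 1 and 4 in WT induced replicate 2 stand behind the lowest values. The average of MPO was log2 -1.33 ± 0.28 SE (adjusted p = 0.0278); 6 of the 12 fits that left out 1 library lost the call, up to an adjusted p of 0.12 without S222A uninduced replicate 1. CTSG, cathepsin G, was at 301, 391 and 371 CPM in WT uninduced libraries, 318, 290.3 and 234 CPM in WT induced, 733, 561 and 559.6 CPM in S222A uninduced and 169, 198 and 219 CPM in S222A induced libraries, and was 2-fold lower on the average (adjusted p = 0.00142). The WT groups of CTSG overlapped, and its unadjusted p of 0.083 in that line keeps it out of the shared genes. AZU1 (log2 -0.89), RNASE2 (-0.66) and S100P (-0.68) were the other called members, but like CTSG they were not shared genes. They lost their calls in 8 (AZU1), 11 (RNASE2) and 2 (S100P, without WT induced replicate 3 or S222A induced replicate 2) of the 12 fits without a library.

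SRGN, the proteoglycan core that packs granule contents, was the most abundant of the lower genes named. It was at 3582, 3105 and 3269 CPM in WT uninduced libraries, 2297, 2295 and 2886 CPM in WT induced, 5709, 6611 and 5862 CPM in S222A uninduced and 3014, 3496 and 2466 CPM in S222A induced libraries. Treated and untreated libraries were apart in both lines, and the S222A line started and ended higher than the WT line on the mean (average log2 -0.72 ± 0.12 SE, adjusted p = 0.00783). S100A8, a calcium-binding subunit of calprotectin, was at 12.6, 9.46 and 17.6 CPM in WT uninduced libraries, 8.18, 5.61 and 6.58 CPM in WT induced, 39.04, 24.6 and 24.1 CPM in S222A uninduced and 11.4, 12.3 and 12.3 CPM in S222A induced libraries. It showed the same arrangement, with separate groups in each line, a higher start in the S222A line and an average of log2 -1.09 ± 0.20 SE (adjusted p = 0.0137). Its partner S100A9 was called too (log2 -0.95 ± 0.19 SE) but was not a shared gene. Of the 12 tested monocyte and macrophage genes, 10 were not called and 2 were called lower, against 0.549% of all genes. The call of S100A8 was lost without WT induced replicate 3 (adjusted p = 0.0514), and that of S100A9 without that library or S222A induced replicates 1 or 3.

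CDA, cytidine deaminase, the enzyme that inactivates the leukaemia drug cytarabine, was lower in both lines. It was at 21.7, 20.9 and 20.02 CPM in WT uninduced libraries, 13.3, 12.3 and 12.1 CPM in WT induced, 11.5, 13.95 and 16.4 CPM in S222A uninduced and 2.08, 3.79 and 4.22 CPM in S222A induced libraries, without overlap in either line. The average was log2 -1.32 ± 0.18 SE (2.49-fold lower, adjusted p = 0.00233), or 1.65-fold for WT and 3.77-fold for S222A. Of the other 13 tested genes of cytarabine transport and metabolism none was called, and 0.549% of all genes were called lower. The remaining lower genes named by size were MSRB1, GRAMD1B, PRDX4, CD320, FAM46A and EXOSC4. MSRB1, which repairs oxidised methionine, had log2 -0.74 ± 0.13 SE (adjusted p = 0.0112), and the peroxidase PRDX4 had -0.62 ± 0.13 SE (adjusted p = 0.0278). The smaller changes of GRAMD1B, PRDX4, CD320 and EXOSC4 lost their call in 9 to 11 of the 12 fits without a library, and FAM46A lost it without S222A induced replicate 1.

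**Figure D3:**
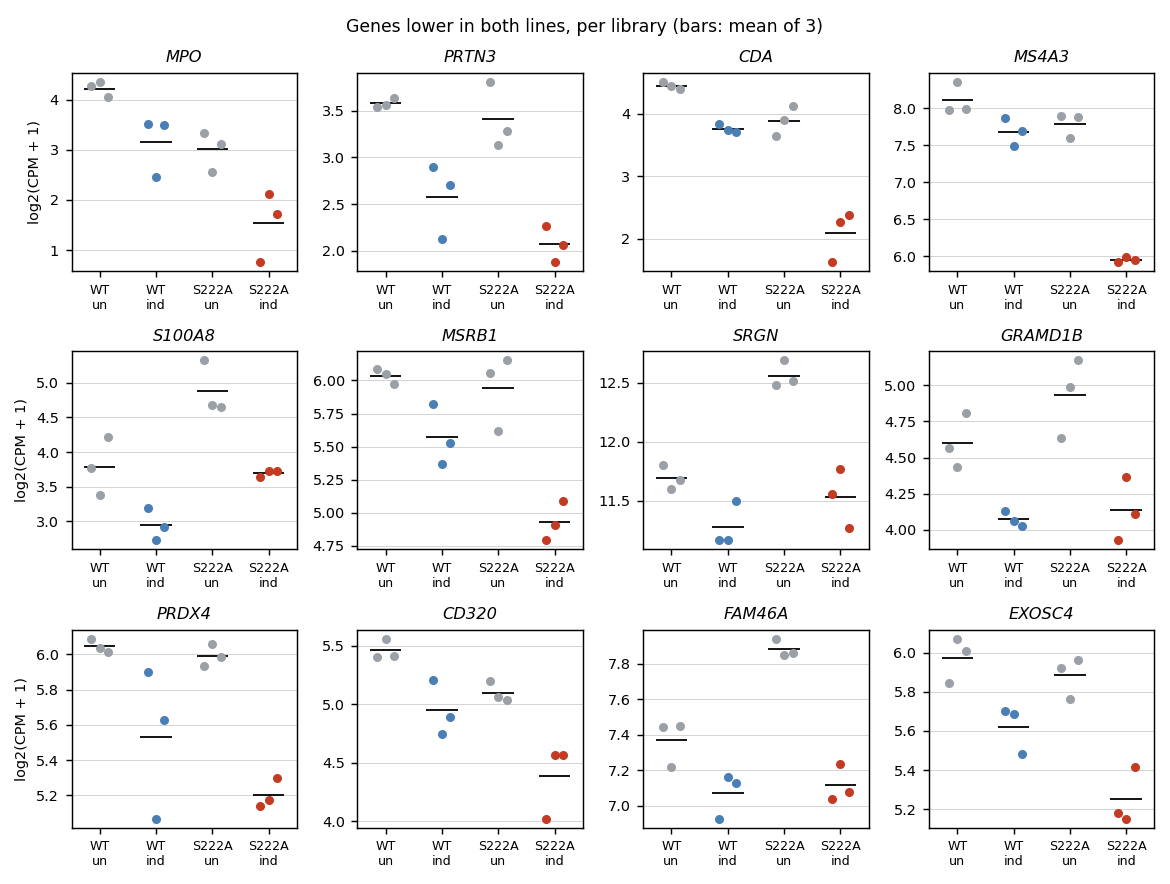
Level in each library, as log2(CPM + 1), of the 12 lower genes named by size, in the uninduced (un, grey) and induced (ind, coloured) groups of 3, with bars at the group mean; axes do not start at 0. Within each line every induced point lies below every uninduced point.

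Genes of the growth machinery were not called singly. Of 42 tested ribosome biogenesis genes none was called, but 29 were lower and 0 higher in both lines, against 3388 lower and 3617 higher of 11474 genes, and the median was log2 -0.34 (WT -0.08, S222A -0.63). NOP16, a nucleolar protein, was at 198, 248 and 153 CPM in WT uninduced libraries, 209.6, 174 and 165 CPM in WT induced, 212, 196 and 184 CPM in S222A uninduced and 100.1, 108 and 121 CPM in S222A induced libraries (average log2 -0.49 ± 0.13 SE, adjusted p = 0.0784), and its WT groups overlapped. Of 41 tested DNA replication genes none was called and 32 were lower in both lines, with a median of -0.29 (WT -0.08, S222A -0.49). MCM7, a subunit of the replicative helicase, was at 368, 371 and 395 CPM in WT uninduced libraries, 330.2, 339.7 and 319.7 CPM in WT induced, 328, 298 and 373 CPM in S222A uninduced and 232, 228 and 217 CPM in S222A induced libraries (average log2 -0.38 ± 0.09 SE, adjusted p = 0.06), and its groups did not overlap in either line. Among 33 mitosis genes 20 were lower and 0 higher in both lines, with a median of -0.23.

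With the term for the deepest libraries, where 5.35% of all genes were called lower, 24 of the 42 ribosome biogenesis, 16 of the 41 replication and 7 of the 33 mitosis genes were called lower, and none higher. Of the 7 tested CDK inhibitors, which brake the cell cycle, CDKN2D was called higher without that term (log2 0.74 ± 0.17 SE, adjusted p = 0.0457), against 1.5% of all genes. The other 6 were not called. The call of CDKN2D was lost in 10 of the 12 fits without a library. Of the 5 tested genes of the BTG and TOB family only BTG2 was called, again against 1.5% of all genes higher. The 44 cytosolic ribosomal protein genes had a median of log2 0.06, with none called.

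Mitochondrial genes were looked at because doxycycline acts on mitochondrial ribosomes, although effects of drug and construct cannot be told apart here. The 13 mitochondrially encoded mRNAs had similar medians in both lines, log2 0.19 for WT and 0.31 for S222A. Of the 13, 12 were higher in both lines, against 3617 of 11474 genes, and none was called. MT-CYB, which encodes cytochrome b, was at 1671, 2734 and 1927 CPM in WT uninduced libraries, 2898, 2484 and 2405 CPM in WT induced, 2405, 1660.1 and 1659 CPM in S222A uninduced and 2199, 2313 and 3095 CPM in S222A induced libraries (average log2 0.35 ± 0.16 SE, adjusted p = 0.308), and its groups overlapped in both lines. With the depth term 4 of the 13 were called higher, against 5.53% of all genes. Their kind of RNA took a smaller share of counts in the 4 deepest libraries (5.03 to 7%) than in most of the other 8 (6.86 to 9.27%). Of 44 tested nuclear genes of the mitochondrial ribosome and translation, 32 were lower in both lines (median -0.25), against 3388 of 11474 genes. MRPS26 alone was called, lower (log2 -0.58 ± 0.13 SE, adjusted p = 0.0373), against 0.549% of all genes. It was not a shared gene. Its call was lost in 9 of the 12 fits without a library. The 26 tested genes of the ATF4 stress response had a median of log2 -0.20. Of these, 2 were called lower (TRIB3, log2 -0.79, and PHGDH, -0.52) and 1 higher (VLDLR, 0.68), against 0.549 and 1.5% of all genes. Their WT changes were -0.35, -0.26 and 0.02, and the call of PHGDH was lost in 10 of the 12 fits without a library. TRIB3 and VLDLR lost theirs without WT induced replicate 3, S222A uninduced replicate 1 or S222A induced replicate 1, and TRIB3 also without S222A induced replicate 2.

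Of the leukaemia transcription factors and class IIa histone deacetylases, those called were not shared genes. Of 16 tested myeloid transcription factors, 1 was called higher (RUNX2) and 1 lower (CEBPD), against 1.5 and 0.549% of all genes. Neither was a shared gene. RUNX2 kept its call in every fit without a library (log2 0.61 to 0.73), and CEBPD lost its call in 8 of the 12. The 8 tested genes of the HOXA cluster with its cofactors MEIS1 and PBX3 had a median of log2 0.45, with 0.13 in the WT line, and none was called without the depth term and 5 higher with it, against 5.53% of all genes. Of 7 tested MEF2 factors and class IIa deacetylases only HDAC9, a repressor that binds MEF2 proteins, was called. It was higher, 14.3% of the list against 1.5% of all genes, but was not a shared gene. HDAC9 was at 36.3, 38.8 and 39.2 CPM in WT uninduced libraries, 42.4, 48.2 and 46.8 CPM in WT induced, 27.03, 28.3 and 42.7 CPM in S222A uninduced and 62.7, 61.3 and 54.4 CPM in S222A induced libraries (log2 0.58 ± 0.13 SE, adjusted p = 0.0358), and the call was lost in 10 of the 12 fits without a library.

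**Figure D4:**
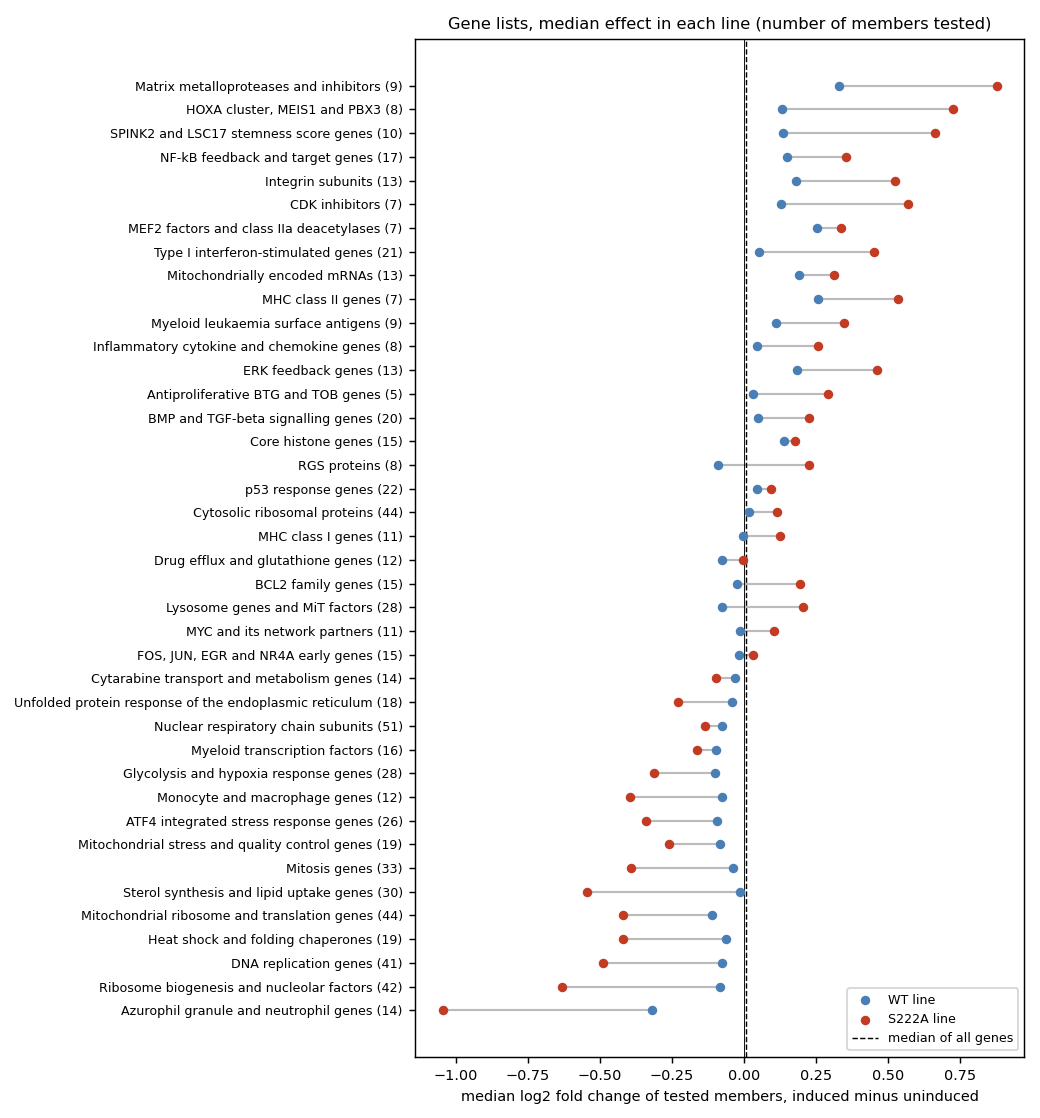
Median log2 fold change, induced minus uninduced, in the WT (blue) and S222A line (red) for the 40 gene lists with at least 5 tested members, ordered by the average of both lines. In 34 lists both medians have the same sign and in 39 the S222A median is the larger in size; the dashed line is the median of all genes.

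The shared genes, chosen for equal signs, can differ between the lines only in size. Of the 91, 86 had the larger change in the S222A line, 37 had an unadjusted p under 0.05 for the difference, and 4 were called in it: NOG, HIST1H2AC, SMIM14 and MS4A3. Over all genes 9 (0.0784%) were called in the difference and 766 (6.68%) had an unadjusted p under 0.05. In the 5 shared genes larger in the WT line (CAPN11, MMP19, RRAGB, SYNPO and ZC3H6, named after their values were seen) no difference was called. CAPN11, MMP19 and SYNPO had few or no counts in the WT uninduced libraries, so the size of their WT change is poorly determined. RRAGB, a small GTPase of amino acid sensing, had log2 0.92 ± 0.26 SE for WT and 0.64 ± 0.24 SE for S222A, with an average call lost in 10 of the 12 fits without a library. The 5 genes called on the average with opposite signs in the lines were BMP8B, SQLE, C5orf56, CMSS1 and PPP1R15A. Their WT values lay near 0, from -0.08 for PPP1R15A to 0.12 for SQLE, and their S222A values from -1.16 for SQLE to 2.56 for C5orf56, so their averages describe the S222A line. All but BMP8B lost their call in 9 to 11 of the 12 fits without a library.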

How the data were processed

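RNA sequencing counts per gene symbol were deposited by the authors as raw counts for 12 libraries, with no normalization. The submitters' processing notes name build hg19 and, with no stated roles, DESeq2, STAR 2.4 and HTSeq 0.6.1. Which annotation and strand setting were used is not given in the sources used here, and reads of antisense neighbours cannot be told apart. From these counts, genes were kept with edgeR's filterByExpr (minimum count 10), which left 11474 of 55765 genes and 99.47% of counts. A single model with TMM factors and 1 mean for each group, leaving 8 residual degrees of freedom, was tested with edgeR 4.0.16 in R 4.3.3, and p-values were adjusted over all genes tested. SE is the absolute log2 change over the root of F. Alternatives used limma 3.58.1 and DESeq2 1.42.0, and the code was tested on simulated data. Replicate numbers were not used as a block. Genes named by size were up to 12 in each direction: shared genes with a mean level of 1 log2 CPM or more whose treatments did not overlap in either line. MEF2C, up to 4 genes per list and the genes of opposite sign were also named. Symbols of clone style were counted, not named. The comparison and its 42 gene lists were chosen with earlier results of these data known. Promoters are RefSeq, GRCh38.p14, matched by symbol or synonym for 64 of 91 shared genes.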

Additional observations from a re-analysis of the deposited data

Results flagged for a closer look

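In 9 genes the doxycycline effect differed between the lines by the test of the difference itself (S222A minus WT on the log2 scale, edgeR adjusted p under 0.05), so an average over both lines describes them poorly. Leaving out 1 library left 0 of these calls in 8 of 12 fits and 3 or 4 calls in the other 4 fits, which left out WT uninduced replicates 2 or 3, WT induced replicate 1 or S222A uninduced replicate 3. The difference of SMIM14 was called in 2 of those fits. The difference was 2.63 for HIST1H2AC, 2.44 for NOG, 2.33 for DUSP4, 2.14 for SMIM14, 1.53 for RPS6KA5 and 1.44 for INSIG1, all higher on induction in the S222A line. It was -1.44 for MS4A3, -1.22 for MARC1 and -1.14 for BMP8B, all lower there. NOG, HIST1H2AC and SMIM14 were also higher and MS4A3 lower in the WT line at an unadjusted p under 0.05. DUSP4, an ERK phosphatase like DUSP6, had log2 0.32 for WT and 2.65 for S222A. INSIG1, which retains the sterol sensor in the endoplasmic reticulum, had 0.09 and 1.53, and RPS6KA5, a kinase that phosphorylates histone H3 and CREB, 0.37 and 1.90. BMP8B, a BMP family ligand, had 0.03 and -1.12, and the mitochondrial reductase MARC1 -0.05 and -1.27.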

How the results depend on the processing

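The 235 genes called on the average of both lines became 443 with DESeq2's Wald test, 123 in an additive model of line and treatment and 1249 with a term for the deepest library of each group. The count over both lines at an unadjusted p under 0.05 with the same sign, 120 genes (1.05%), became 265 with that term. The larger-p test, which called 1 gene, called 2 without a filter on low counts, 4 with DESeq2, 6 with the depth term (AHNAK, BTG2, NOG, RGS1, SMIM14 and SPINK2) and 0 with upper quartile factors, limma-voom or without the deepest libraries. The difference between lines, 9 genes, became 22 without the filter, 36 with DESeq2 and 147 with the depth term. Without single libraries the average called 108 to 244 genes, both lines 93 to 181 (181 without WT induced replicate 1), the larger-p test 0 to 0 and the difference 0 to 4. Without the filter the median log2 change of all genes moved from 0.01 to 0.12. None of the 126 called genes followed under the alternatives changed sign, but in 594 of 2643 fits of a gene the call was lost. Of 882 list medians under alternatives, 20 moved by over 1 SD and 32 changed sign, all of lists with a main median between -0.04 and 0.10.

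The replicate numbers were not shown to pair the libraries. Same-numbered libraries of different groups correlated at -0.53 to 0.64 (18 pairs, median -0.21) and different-numbered ones at -0.62 to 0.76 (36 pairs, median 0.17). Depth enters this comparison. The deepest libraries of the 4 groups (replicates 2, 1, 1 and 3) correlated with each other at 0.61 to 0.76 (6 pairs, median 0.70). Pairs with 1 deepest library had a median of -0.43 (24 pairs). Both kinds of pair occur among same-numbered and different-numbered libraries, so the comparison cannot decide whether the numbers pair libraries. With a replicate block the average called 92 genes, the larger-p test 0 and the difference 0, and the shared genes numbered 45.

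Depth limits the low genes most: in the library with 875710 counts, 3 counts equal 3.43 CPM, covering counting error only.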

Other observations

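A few more shared genes, picked after their values were seen, are PYGM, SYNPO and TPM2. PYGM, muscle glycogen phosphorylase, had counts of 0, 1 and 1 uninduced and 11, 1 and 4 induced in the WT line and 6, 1 and 0 and 15, 27 and 79 in the S222A line (average log2 2.93 ± 0.46 SE, edgeR adjusted p = 0.0059). SYNPO, an actin-associated protein of kidney podocytes and neurons, had 0, 1 and 0 and 10, 2 and 1 counts in the WT and 5, 3 and 1 and 12, 20 and 81 in the S222A line (adjusted p = 0.0283), and lost its call in 9 of the 12 fits without a library. TPM2, beta-tropomyosin, was at 2.52, 2.90 and 5.31 CPM in WT uninduced libraries, 5.12, 13.5 and 7.63 CPM in WT induced, 4.32, 3.69 and 4.38 CPM in S222A uninduced and 19.4, 10.03 and 13.2 CPM in S222A induced libraries (average log2 1.44 ± 0.29 SE, adjusted p = 0.0237), with overlap in the WT line and a call lost in 6 of those fits. PYGM lost its call without the deepest libraries.

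Other shared genes, chosen in the same way, were TXNIP, HEXIM1, CYP1B1, NFIL3 and MALAT1. TXNIP, a thioredoxin-binding protein that responds to glucose, was at 119, 121 and 89.1 CPM in WT uninduced libraries, 184, 121 and 151 CPM in WT induced, 127, 103 and 106 CPM in S222A uninduced and 363, 402 and 458 CPM in S222A induced libraries (log2 1.17 ± 0.13 SE, adjusted p = 0.000672), with overlap in the WT line. HEXIM1, which inhibits the elongation factor P-TEFb, had log2 0.57 ± 0.17 SE for WT and 0.77 ± 0.16 SE for S222A and no overlap in either line (adjusted p = 0.0102). CYP1B1, a cytochrome P450 switched on by the aryl hydrocarbon receptor, was at 28.8, 19.7 and 22.5 CPM in WT uninduced libraries, 29.96, 31.4 and 33.9 CPM in WT induced, 54.5, 61.6 and 63.5 CPM in S222A uninduced and 139, 166 and 160.4 CPM in S222A induced libraries, without overlap in either line (log2 0.91 ± 0.12 SE, adjusted p = 0.00182). NFIL3, a bZIP repressor, had an average of log2 0.87 ± 0.13 SE (adjusted p = 0.00413), again without overlap within a line. The nuclear RNA MALAT1 was at 2743, 3530.2 and 4686 CPM in WT uninduced libraries, 4119, 7689 and 5258 CPM in WT induced, 4477, 3706 and 4134 CPM in S222A uninduced and 8079, 9203 and 9111 CPM in S222A induced libraries, with overlap in the WT line and an average of log2 0.87 ± 0.17 SE (adjusted p = 0.0174), a call lost without S222A uninduced replicate 2.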
